A study of Rattus norvegicus with 4 samples.

Results

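Star miRNAs are named as the minor strands of miRNA hairpins, and 56 of the 350 rat miRNAs on the arrays were examined here. The star signal was not the lower one in every pair, as given below for miR-140*, miR-296* and miR-330*. The members are all names ending in an asterisk except miR-126* and miR-378*. Each was set against the miRNA of the same hairpin without the asterisk, its partner, on the same array. The partner carried the plain name for 49 members and the -5p form of it for 1 (miR-125b*). For the other 6, which name 1 of several gene copies (such as miR-24-1*), it was the shared mature miRNA, so that the 56 members had 53 partners. The gracilis, a muscle of the inner thigh, was taken from male Sprague-Dawley rats in 2 groups of 2 samples: muscle after 4 h of ischemia followed by reperfusion, and muscle of sham-operated rats. The sample labels give 4 h of reperfusion and the series text 24 h, so the time is not settled. Whole muscle was used, which holds muscle fibres, vessels, nerve, connective tissue and blood. The samples are numbered below by their replicate number, and p-values measure the spread between these samples only.

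A miRNA is cut from one strand of a folded primary transcript. The enzymes Drosha and Dicer release a short duplex, of which one strand, the guide, is loaded into an Argonaute protein and pairs with target mRNAs through its seed. The other strand, called star or passenger in older names and now given by its arm (-5p or -3p), is mostly degraded. Strand choice favours the strand that begins with U or A and whose 5′ end is less firmly paired. As both strands come from the same precursor, their ratio reflects strand choice and stability more than transcription.

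RefSeq sequences (build GRCr8) were found for 32 of the 35 star strands looked up under their arm names. The hairpins of 3 genes whose strands carry results below are printed whole, 5′ to 3′, with both mature strands in capitals and the -5p strand first. In Mir21 and Mir30a the second strand is the star, and so it is in Mir140, where the array calls the -3p strand miR-140*.
Mir21: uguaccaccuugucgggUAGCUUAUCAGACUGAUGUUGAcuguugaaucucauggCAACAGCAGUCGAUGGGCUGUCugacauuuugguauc
Mir30a: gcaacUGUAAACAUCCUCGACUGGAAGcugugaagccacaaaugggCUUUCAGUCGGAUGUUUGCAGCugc
Mir140: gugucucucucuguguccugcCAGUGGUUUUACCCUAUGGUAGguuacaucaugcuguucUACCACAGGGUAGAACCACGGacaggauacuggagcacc
They lie at chr10:71902600-71902691 (minus strand), chr9:33233941-33234011 (plus strand) and chr19:52375293-52375391 (plus strand). 

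Star strands of gene copies can tell apart loci whose guide is the same. The following lines show such sets and the other star strands that the results turn on, with the seed (bases 2 to 8) in capitals.
miR-24-1*: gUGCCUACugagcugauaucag
miR-24-2*: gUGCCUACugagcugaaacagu
miR-30c-1*: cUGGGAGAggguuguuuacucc
miR-30c-2*: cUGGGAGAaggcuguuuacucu
miR-99a*: cAAGCUCGuuucuaugggucug
miR-99b*: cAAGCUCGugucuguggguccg
miR-29a*: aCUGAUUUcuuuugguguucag
miR-29c*: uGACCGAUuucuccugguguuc
miR-22*: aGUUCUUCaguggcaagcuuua
let-7b*: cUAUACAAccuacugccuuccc
let-7d*: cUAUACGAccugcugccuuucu
miR-26b*: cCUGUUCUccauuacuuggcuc
miR-101a*: uCAGUUAUcacagugcugaugc
miR-106b*: cCGCACUGuggguacuugcugc
The miR-24 copies differ at 5 of 22 positions and the miR-30c copies at 3 of 22, in each case outside a shared seed. The pair miR-99a* and miR-99b* also shares its seed and differs at 3 of 22 positions. miR-29a* and miR-29c*, whose guides share a seed, have different seeds because their 5′ ends are offset. With miR-29c* starting 2 bases earlier they are identical at 17 of 20 positions. Over the 30 pairs with both sequences, the partner begins with A or U in 26 and the star strand in 12. U is the first base of the partner in 20 pairs and of the star strand in 4. The shared partners miR-24 and miR-30c count once for each gene copy.

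Star miRNAs were detected less often than the other miRNAs on every array. The scanner software called 17 members (30.4%) in ischemia-reperfusion muscle 1, 13 (23.2%) in ischemia-reperfusion muscle 2, 15 (26.8%) in sham muscle 1 and 22 (39.3%) in sham muscle 2. For the 294 other miRNAs the shares were 53.4%, 36.7%, 48.6% and 56.1% in the same order. In all, 31 members were detected on at least 1 array and 2 on all 4 arrays, miR-140* and miR-30c-2*. Of the 294 other miRNAs, 195 were detected on at least 1 array and 76 on all 4. All 17 members seen in ischemia-reperfusion muscle 1 were also seen in sham muscle 2, whereas the ischemia-reperfusion muscles shared 4 and the sham muscles 13. Without ischemia-reperfusion muscle 2, 24 members were detected at least once, because 7 were called there and nowhere else. These overlaps were not counted over the other miRNAs, so they cannot be read as particular to star strands.

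The arrays differed in ways that touch these weak signals. The 75th percentile of the 78 miRNAs seen on every array was 995 and 92.0 units in ischemia-reperfusion muscles 1 and 2, against 3380 and 1171 units in sham muscles 1 and 2. Detected members had a median signal of 16.6, 7.44, 49.1 and 16.2 units in that order. On the array of sham muscle 1 the zero lay low: the 124 miRNAs detected nowhere had a median of −6.97 units there, against −1.43, 0.0290 and −0.676 units in ischemia-reperfusion muscles 1 and 2 and sham muscle 2. Ischemia-reperfusion muscle 2 and sham muscle 1 also stood apart in their markers. In ischemia-reperfusion muscle 2, 0 of 6 skeletal muscle miRNAs on the array were detected (summed signal 8.40 units), against 5 in each other muscle (90699, 211915 and 113068 units in ischemia-reperfusion muscle 1 and sham muscles 1 and 2). It had 8 of 12 epithelial miRNAs, against 2 in ischemia-reperfusion muscle 1 and 0 in each sham muscle. The 6 leukocyte miRNAs summed to 4230 and 175 units in ischemia-reperfusion muscles 1 and 2, against 1262 and 5093 units in sham muscles 1 and 2, so that sham muscle 1 was low for them although it was the brightest array. The endothelial miRNA on the list gave 227 and 35.1 units after ischemia-reperfusion, against 4275 and 230 units in sham muscle. The 5 nerve and glia miRNAs summed to 238 and 50.4 units after ischemia-reperfusion, against 943 and 289 units in sham muscle. The 2 red cell miRNAs summed to 1282 and 265 units, against 1359 and 863 units. None of these marker signals is scaled for array brightness. Divided by its array's 75th percentile, miR-451 (red cells) lay at log2 0.19 and 1.52 after ischemia-reperfusion, against −1.52 and −0.72 in sham muscle. The other red cell miRNA, miR-144, lay at −2.79 and −6.03, against −4.25 and −2.97. The endothelial miRNA lay at −2.13 and −1.39, against 0.34 and −2.35. Members of the leukocyte and nerve lists went different ways after scaling. The leukocyte miRNA miR-146a lay at −3.28 and 0.54, against −3.75 and −3.25, and miR-150 at −2.25 and −9.32, against −2.62 and −2.63. From the nerve list, miR-338 lay at −4.17 and −0.85, against −4.08 and −4.05, and miR-128 at −2.52 and −9.32, against −2.19 and −2.53. The value −9.32 is the floor given to undetected signals. The part of these differences in the results below was not tested, and in whole tissue fewer cells of a type cannot be told apart from less RNA per cell.

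**Figure D1:**
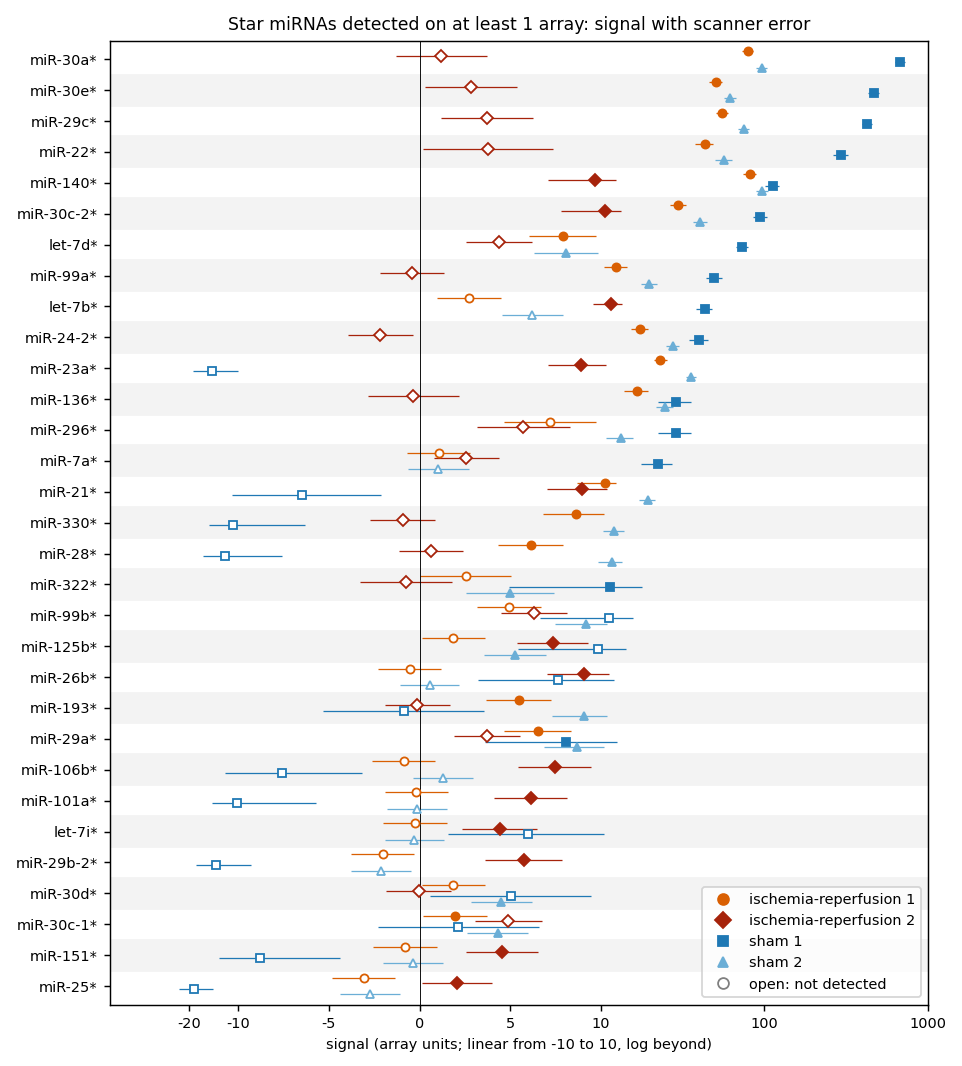
Signal of the 31 star miRNAs detected on at least 1 array (rows, in order of their highest signal) in 2 ischemia-reperfusion and 2 sham muscles, in array units with the scanner error as bars. Filled symbols are detected and open ones are not; the axis is linear from −10 to 10 and logarithmic beyond. Ischemia-reperfusion muscle 1 and sham muscle 2 lie close together, sham muscle 1 is brightest for the upper rows, and in the lower rows 7 members are filled in ischemia-reperfusion muscle 2 alone.

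Which star miRNAs differ between ischemia-reperfusion and sham muscle was asked with a linear model (limma). It covered the 159 miRNAs that both arrays of either group had detected, of which 15 were star miRNAs. No star miRNA passed. Of the 159 miRNAs, 0 (0%) were called higher and 0 (0%) lower by limma (Benjamini-Hochberg adjusted p below 0.05). Before adjustment 2 of them (1.26%) had a p below 0.05, neither a star miRNA, and without moderation there were 0 adjusted calls. The lowest adjusted p of a star miRNA was 0.817. The other 41 star miRNAs were left out by this filter. Without it all 56 were tested and 0 were called, with 0 at an unadjusted p under 0.05. Of the 15 tested, 11 entered because both sham arrays and not both ischemia-reperfusion arrays detected them, and 2 entered the other way round. Their directions are therefore partly set by the filter, and their counts are a description only. Both ischemia-reperfusion muscles lay below both sham muscles for 6 of them and above for 0, where the shares over all 159 were 13.2% and 11.9%. All 6 were below detection in ischemia-reperfusion muscle 2. With undetected signals at the limit of their own array 4 of the 6 were left, miR-22*, miR-29c*, miR-30a* and miR-30e*. The log2 differences given below are ischemia-reperfusion minus sham of the signal divided by its array's 75th percentile, with the SE of limma over 2 arrays per group.

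The star strands of miR-30a and miR-30e were clearly detected in 3 muscles and missing in ischemia-reperfusion muscle 2. Guides of this family are abundant in heart and skeletal muscle, and miR-30a and miR-30c-2 come from hairpins 19748 bases apart on chromosome 9. The signal of miR-30a* was 79.4 ± 6.22 and 1.20 ± 2.52 units (scanner error) in ischemia-reperfusion muscles 1 and 2, against 678 ± 49.3 and 96.0 ± 7.30 units in sham muscles 1 and 2. For miR-30e* it was 50.4 ± 4.70 and 2.82 ± 2.54 units after ischemia-reperfusion, against 465 ± 38.1 and 61.9 ± 5.40 units in sham muscle. Both were undetected in ischemia-reperfusion muscle 2, and in ischemia-reperfusion muscle 1 they were close to sham muscle 2 and far from the brighter sham muscle 1. The log2 difference was −1.99 ± 1.28 for miR-30a* and −1.12 ± 1.02 for miR-30e*, both with a limma adjusted p of 0.817. Without ischemia-reperfusion muscle 2 it was −0.69 and −0.75, and without sham muscle 1 it was −1.35 and −0.43. The partners differed by −1.68 ± 1.34 for miR-30a and −1.58 ± 1.27 for miR-30e, and by −0.0946 and −0.16 without ischemia-reperfusion muscle 2.

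The star strand of one miR-30c copy was detected throughout and that of the other barely. Their shared partner miR-30c gave 627 and 38.3 units after ischemia-reperfusion, against 3455 and 752 units in sham muscle. From the chromosome 9 copy, miR-30c-2* gave 29.8 ± 3.38 and 10.5 ± 2.73 units after ischemia-reperfusion, against 94.1 ± 9.63 and 40.5 ± 3.92 units in sham muscle, and was detected in all 4. Its log2 difference was 0.91 ± 1.08, and −0.0528 without ischemia-reperfusion muscle 2. The chromosome 5 copy, miR-30c-1*, stayed between 1.92 and 4.89 units on all arrays, near its scanner error of 1.69 to 4.44 units. It was called in ischemia-reperfusion muscle 1 at 1.92 units and not in muscle 2 at 4.89 units, so its calls have no order. Whether each probe also responds to the other copy was not tested. The fifth member of this family, miR-30d*, was called only in sham muscle 2, at 4.49 ± 1.68 units, while miR-30d gave 589 and 34.5 units after ischemia-reperfusion, against 1064 and 715 units in sham muscle.

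The star strands of the miR-29 family, whose guides repress collagen mRNAs, gave no difference that passed the test. miR-29c* gave 54.8 ± 4.65 and 3.71 ± 2.54 units after ischemia-reperfusion, against 424 ± 31.4 and 74.4 ± 5.86 units in sham muscle. Only the muscle 2 value was below detection, and the groups did not overlap. The log2 difference was −0.92 ± 0.95, and −0.85 ± 0.96 for its partner miR-29c. Without sham muscle 1 the difference of miR-29c* was −0.43. miR-29a* gave 6.50 ± 1.83 and 3.70 ± 1.81 units after ischemia-reperfusion, against 8.06 ± 4.48 and 8.67 ± 1.80 units in sham muscle. After scaling it lay at log2 −7.26 and −4.64 after ischemia-reperfusion, against −8.71 and −7.08 in sham muscle. The log2 difference of 1.95 ± 1.32 was 0.64 without ischemia-reperfusion muscle 2, where the star strand was not detected, and −0.77 without scaling. miR-29b-1* was detected nowhere, although its partner miR-29b gave between 93.9 and 3586 units.

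Another cluster gave a star strand from 2 of its 3 hairpins. miR-23a, miR-27a and miR-24-2 are made from one primary transcript on chromosome 19, where miR-24-2* and miR-27a* lie 138 bases apart. For miR-24-2* the signals were 17.3 ± 2.14 and −2.16 ± 1.78 units after ischemia-reperfusion, against 39.8 ± 5.43 and 27.4 ± 2.52 units in sham muscle. miR-23a* gave 23.0 ± 2.12 and 8.92 ± 1.84 units after ischemia-reperfusion, against −14.4 ± 4.39 and 35.5 ± 2.47 units in sham muscle. So miR-24-2* was missing in ischemia-reperfusion muscle 2 and miR-23a* in sham muscle 1, on the array with the low zero. miR-27a* was detected in none of the 4, at −14.5 to 0.0660 units, beside 250 to 4136 units for miR-27a. The second source of miR-24 is a copy on chromosome 17, and its star strand miR-24-1* was also detected in none, at −17.6 to −1.39 units. The log2 difference was −1.67 ± 1.45 for miR-24-2*, and 0.0638 without ischemia-reperfusion muscle 2. It was 2.78 ± 1.75 for miR-23a*, and 0.64 without sham muscle 1.

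Of the remaining star strands, miR-22*, miR-99a* and miR-136* were missing in ischemia-reperfusion muscle 2 and miR-140* was not. miR-22, a guide abundant in striated muscle, had a star signal of 43.0 ± 5.57 and 3.75 ± 3.57 units after ischemia-reperfusion, against 293 ± 30.7 and 56.7 ± 6.56 units in sham muscle. Its log2 difference was −0.63 ± 0.93, beside −0.68 ± 0.94 for miR-22. The difference of miR-22* was −0.20 without sham muscle 1 and −1.05 without sham muscle 2. miR-99a* gave 12.4 ± 1.94 and −0.410 ± 1.78 units after ischemia-reperfusion, against 49.1 ± 5.49 and 19.8 ± 2.09 units in sham muscle, a log2 difference of −1.82 ± 1.30, or −0.33 without ischemia-reperfusion muscle 2. With each array's own detection limit as the floor that difference was 0.0935. miR-136*, from the imprinted Dlk1-Dio3 region, gave 16.6 ± 2.74 and −0.352 ± 2.51 units after ischemia-reperfusion, against 28.8 ± 6.63 and 24.5 ± 2.94 units in sham muscle. Its difference of −1.38 ± 1.46 was 0.32 without ischemia-reperfusion muscle 2.

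The strand called miR-140*, the -3p strand of a hairpin best known from cartilage, was detected in all 4 muscles. It gave 81.2 ± 7.02 and 9.66 ± 2.62 units after ischemia-reperfusion, against 112 ± 11.1 and 96.9 ± 8.04 units in sham muscle. On the scaled level the 2 ischemia-reperfusion muscles (log2 −3.61 and −3.25) overlapped with the sham muscles (−4.92 and −3.60), and the log2 difference was 0.82 ± 0.99. It was 0.16 without sham muscle 1 and 1.48 without sham muscle 2. miR-322* and miR-296* were seen in sham muscle alone, so that their ischemia-reperfusion level is only bounded. miR-296* gave 7.17 ± 2.52 and 5.71 ± 2.57 units after ischemia-reperfusion, undetected, and 28.7 ± 6.55 and 13.2 ± 2.53 units in sham muscle. For miR-322*, from the X chromosome, the values were 2.54 ± 2.49 and −0.769 ± 2.53 units, against 11.4 ± 6.48 and 4.99 ± 2.41 units. After scaling the bound on the ischemia-reperfusion level lay above the sham level for both, so no fold is given.

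**Figure D2:**
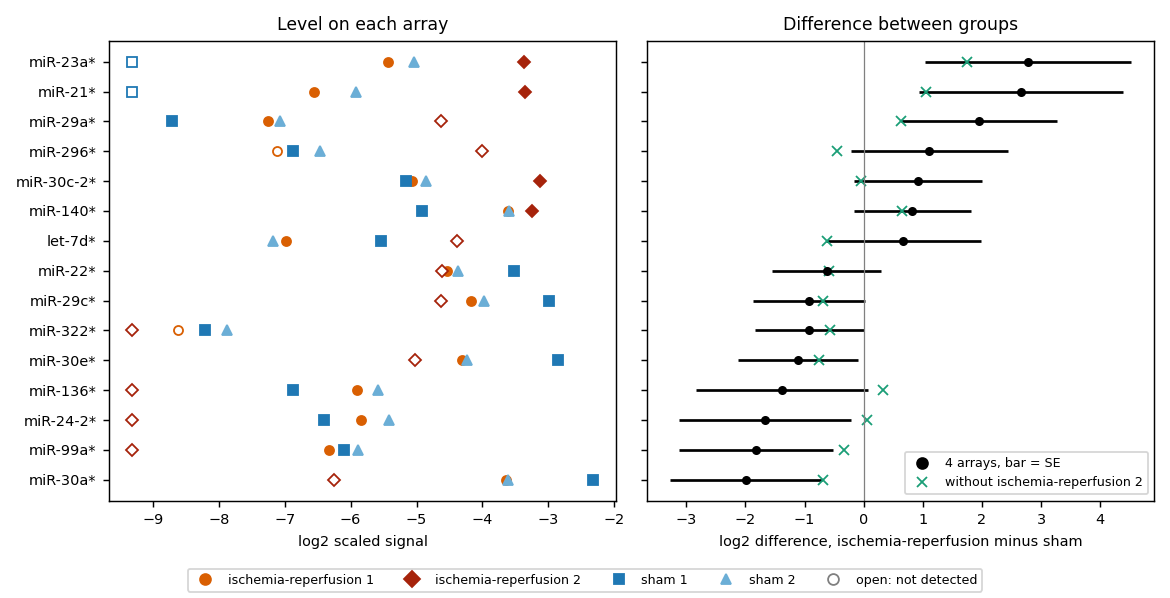
Left, log2 scaled signal of the 15 tested star miRNAs on each of the 4 arrays, where open symbols are undetected and stand at their own level or at the common floor (log2 −9.32). Right, the log2 difference, ischemia-reperfusion minus sham, with its SE (black), and without ischemia-reperfusion muscle 2 (crosses). Differences run from −1.99 for miR-30a* to 2.78 for miR-23a*, and the crosses lie nearer 0 for most.

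The strand ratio removes what an array's brightness does to both strands alike. It is given as the star signal in percent of the partner signal on the same array, with the propagated scanner error. Probes differ in response, so it is no molar ratio, and only its differences between arrays are compared. Where a star was undetected the ratio has an upper limit, from the higher of its own signal and the lowest detected signal of the array. These limits are approximate, because undetected signals reached 9.37, 9.15, 23.1 and 9.11 units in ischemia-reperfusion muscles 1 and 2 and sham muscles 1 and 2. Both strands were detected on at least 1 array for 29 pairs, and on ischemia-reperfusion muscle 1 and both sham muscles for 11.

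In these 11 pairs the strand ratio of ischemia-reperfusion muscle 1 differed little from that of sham muscle 2, and the sham muscles differed from each other. The ratio of ischemia-reperfusion muscle 1 lay between those of the sham muscles for 9 pairs, below both for 1 (miR-29c*) and above both for 1 (miR-136*). It differed from that of sham muscle 2 by a median of 1.14-fold, while the sham muscles differed by a median of 1.94-fold. Sham muscle 1 and sham muscle 2 were apart by more than the sum of their scanner errors for 10 pairs, and ischemia-reperfusion muscle 1 and sham muscle 2 for 1. The sham difference had no common direction, with sham muscle 1 higher for 6 pairs and lower for 5. Moving each array's zero to the level of undetected miRNAs left the median sham difference at 1.87-fold. Scanner error is not the spread between animals, and with 1 ischemia-reperfusion muscle this has no test.

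The pairs that were higher in sham muscle 1 than in sham muscle 2 by the largest factor were those of miR-30e, miR-30a and miR-22. miR-30a* was 3.80 ± 0.42% of miR-30a in ischemia-reperfusion muscle 1, against 9.24 ± 0.99% and 3.54 ± 0.38% in sham muscles 1 and 2. miR-30e* was 4.89 ± 0.60% of miR-30e in ischemia-reperfusion muscle 1, against 12.7 ± 1.5% and 4.29 ± 0.51% in the sham muscles. For miR-22* the ratios were 0.704 ± 0.11%, against 1.41 ± 0.18% and 0.585 ± 0.081%. Here the ratio in sham muscle 1 was 2.61, 2.97 and 2.41 times that in sham muscle 2.
In 5 pairs sham muscle 1 was the low one, among them miR-30c-2* and miR-24-2*, whose ratios are given below. miR-140* was 130 ± 15% of miR-140 in ischemia-reperfusion muscle 1, against 72.2 ± 9.3% and 140 ± 16% in sham muscles 1 and 2. In ischemia-reperfusion muscle 1 and sham muscle 2 the strand named star thus gave the brighter signal. miR-99a* was 2.69 ± 0.46% of miR-99a, against 1.97 ± 0.26% and 3.61 ± 0.46%. miR-29a* was 0.259 ± 0.076% of miR-29a, against 0.0995 ± 0.056% and 0.324 ± 0.072%.
The remaining pairs were also higher in sham muscle 1 than in sham muscle 2. miR-29c* was 3.14 ± 0.35% of miR-29c in ischemia-reperfusion muscle 1, against 5.03 ± 0.52% and 3.41 ± 0.36% in the sham muscles. miR-136* was 46.1 ± 9.0% of miR-136, against 45.4 ± 12% and 31.4 ± 4.5%. Further pairs had both strands in only 2 muscles. miR-193* was 5.51 ± 1.9% of miR-193 in ischemia-reperfusion muscle 1 and 6.21 ± 1.3% in sham muscle 2, and miR-28* was 11.8 ± 3.6% and 17.8 ± 3.1% of miR-28 in the same muscles. For miR-30c-1* the ratios there were 0.307 ± 0.28% and 0.572 ± 0.23%. miR-322* was at most 3.67% of miR-322 in ischemia-reperfusion muscle 1, against 1.66 ± 0.95% and 8.39 ± 4.1% in sham muscles 1 and 2.

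**Figure D3:**
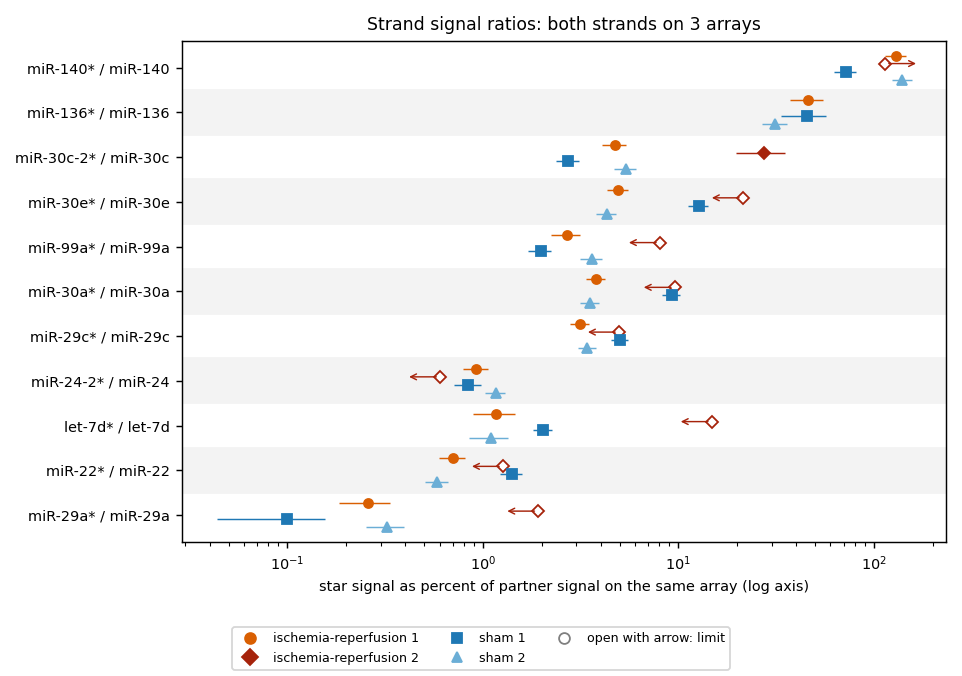
Star signal as percent of partner signal (log axis) for the 11 pairs with both strands detected in ischemia-reperfusion muscle 1 and both sham muscles, with propagated scanner errors. Open symbols with arrows are limits, and miR-136* has no point for ischemia-reperfusion muscle 2. Ischemia-reperfusion muscle 1 lies beside sham muscle 2 in most rows, for example 3.80% and 3.54% for miR-30a*, and sham muscle 1 to either side.

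For most of these pairs a lower strand ratio in ischemia-reperfusion muscle 2 could not have been seen. Their partners gave fewer units there than on the other arrays. Still, miR-22, miR-24 and miR-29a, at 297, 342 and 193 units, lay above that array's 75th percentile of 92.0 units. For 7 of the 11 pairs the upper limit on the ratio was at or above the lowest ratio of the other arrays. For miR-30a*, with a partner at 21.5 units, the limit was 9.56%. It was 4.95% for miR-29c*, 1.26% for miR-22* and 21.3% for miR-30e*. For miR-136* and miR-140* the partner was undetected. miR-24-2* was the exception, with a limit of 0.603% against 0.927 ± 0.13% in ischemia-reperfusion muscle 1 and 0.844 ± 0.13% and 1.16 ± 0.14% in sham muscles 1 and 2. That limit rests on the lowest detected signal of 2.06 units, and the highest undetected signal of that array was 9.15 units. The partner miR-24 is also shared with the other gene copy.

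Both strands were detected in ischemia-reperfusion muscle 2 for 12 pairs, and for 11 of them the strand ratio was above every value and limit of the other muscles. For 8 of these this follows from the partner signal on this dim array and from the limits chosen. With the lowest detected signal of 2.06 units, any detected star strand would have given a ratio above those limits. The other 3 were let-7b*, miR-23a* and miR-30c-2*. Among the 8, let-7i, miR-125b-5p, miR-29b and miR-26b, at 219, 194, 93.9 and 92.4 units, lay above that array's 75th percentile of 92.0 units. With limits at the highest undetected signal, let-7i*, miR-125b*, miR-26b* and miR-151* could have shown a ratio below the limit. The ratio of miR-30c-2* to miR-30c was 4.74 ± 0.67% and 27.5 ± 7.6% in ischemia-reperfusion muscles 1 and 2, against 2.72 ± 0.36% and 5.38 ± 0.69% in sham muscles 1 and 2. Only muscle 2 is high, at 5.10 times the highest other ratio. As miR-30c comes from both gene copies, a change in their shares would also move this ratio, which was not tested. miR-30c-2* was the single pair with both strands on all 4 arrays, and its log2 ratio differed by 1.58 ± 1.36 (SE, n = 2 per group), with an exact two-sided permutation p of 0.667. With 2 muscles against 2 that test cannot go below 0.333. Without ischemia-reperfusion muscle 2 the difference was 0.31.
let-7b* was 4.11 ± 0.75% of let-7b in ischemia-reperfusion muscle 2 and at most 0.330% in muscle 1, against 1.14 ± 0.15% in sham muscle 1 and at most 0.580% in sham muscle 2. miR-23a* was 1.04 ± 0.12% and 2.05 ± 0.45% of miR-23a in ischemia-reperfusion muscles 1 and 2, against at most 0.122% and 1.30 ± 0.13% in sham muscles 1 and 2. The limit for sham muscle 1 falls on the array with the low zero.

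A set of 7 star strands was called in ischemia-reperfusion muscle 2 alone. These were let-7i*, miR-25*, miR-26b*, miR-29b-2*, miR-101a*, miR-106b* and miR-151*. In unscaled signal their partners were 3.19 to 21.3 times brighter in muscle 1, whose array was brighter (75th percentile 995 against 92.0 units). After scaling, the partners of let-7i*, miR-25*, miR-26b* and miR-151* were higher in muscle 2 than in muscle 1. Those of miR-29b-2*, miR-101a* and miR-106b* were lower. miR-106b* gave −0.867 ± 1.74 and 7.44 ± 2.00 units after ischemia-reperfusion, against −7.57 ± 4.39 and 1.28 ± 1.65 units in sham muscle. Its partner miR-106b, a cell proliferation miRNA, gave 207 and 9.73 units after ischemia-reperfusion, against 366 and 246 units in sham muscle. miR-101a* gave −0.172 ± 1.74 and 6.12 ± 2.03 units after ischemia-reperfusion, against −10.1 ± 4.39 and −0.139 ± 1.65 units in sham muscle, beside 416 and 19.7 units, and 1193 and 546 units, for miR-101a. Such signals are a few units above 0 on a dim array, and muscle 2 stands alone in each case.
The ratios in ischemia-reperfusion muscle 2 were 76.4 ± 29% for miR-106b* and 31.1 ± 11% for miR-101a*, and at most 2.20% and 0.676% in any other muscle. They were 9.83 ± 2.4% for miR-26b* (at most 0.653% elsewhere) and 6.10 ± 2.3% for miR-29b-2* (at most 0.225%). As these 7 were picked out by a call in this muscle, their high ratios there are a description. miR-25*, at 2.06 ± 1.92 units, had the lowest signal called on that array. The neighbours miR-25* and miR-106b* lie 372 bases apart on chromosome 12.

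The strand ratio of miR-21 went the other way. Its guide is a miRNA often raised in injured tissue, and in rodent heart its star strand has been described in vesicles released by fibroblasts. miR-21* gave 10.5 ± 1.88 and 8.96 ± 1.93 units after ischemia-reperfusion, against −6.50 ± 4.39 (undetected) and 19.3 ± 2.09 units in sham muscle. The partner miR-21 gave 592 ± 43.4 and 3898 ± 282 units after ischemia-reperfusion, against 276 ± 212 and 628 ± 45.7 units in sham muscle. The ratio was thus 1.78 ± 0.34% and 0.230 ± 0.052% in ischemia-reperfusion muscles 1 and 2, against at most 2.92% and 3.07 ± 0.40% in sham muscles 1 and 2. It was lowest in muscle 2, where it could have been shown down to 0.0528%. The ratio of ischemia-reperfusion muscle 1 was 7.74 times, and that of sham muscle 2 13.3 times, the ratio of ischemia-reperfusion muscle 2. Both ischemia-reperfusion ratios were below that of sham muscle 2, and sham muscle 1 gives no more than a limit on a partner signal with a scanner error of 212 units. With sham muscle 1 at its limit the log2 ratio differed by −2.23 ± 1.48 (SE, n = 2 per group), and the exact two-sided permutation p was 0.333, the smallest possible. Of 22 pairs compared in this way 3 reached that p, and the other 2 had the opposite sign (1.83 for miR-151* and 2.69 for miR-26b*). For miR-151* and miR-26b* every ratio outside ischemia-reperfusion muscle 2 was an upper limit used as a value. The same held for miR-21* in sham muscle 1, so all 3 p-values rest on limits and decide nothing. On the level, miR-21* differed by 2.66 ± 1.73 and miR-21 by 4.58 ± 2.31 (limma adjusted p = 0.817 for each). The difference of miR-21* was 1.06 without ischemia-reperfusion muscle 2, 0.97 without sham muscle 1 and 4.35 without sham muscle 2, and that of miR-21 was 1.51 without ischemia-reperfusion muscle 2.

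**Figure D4:**
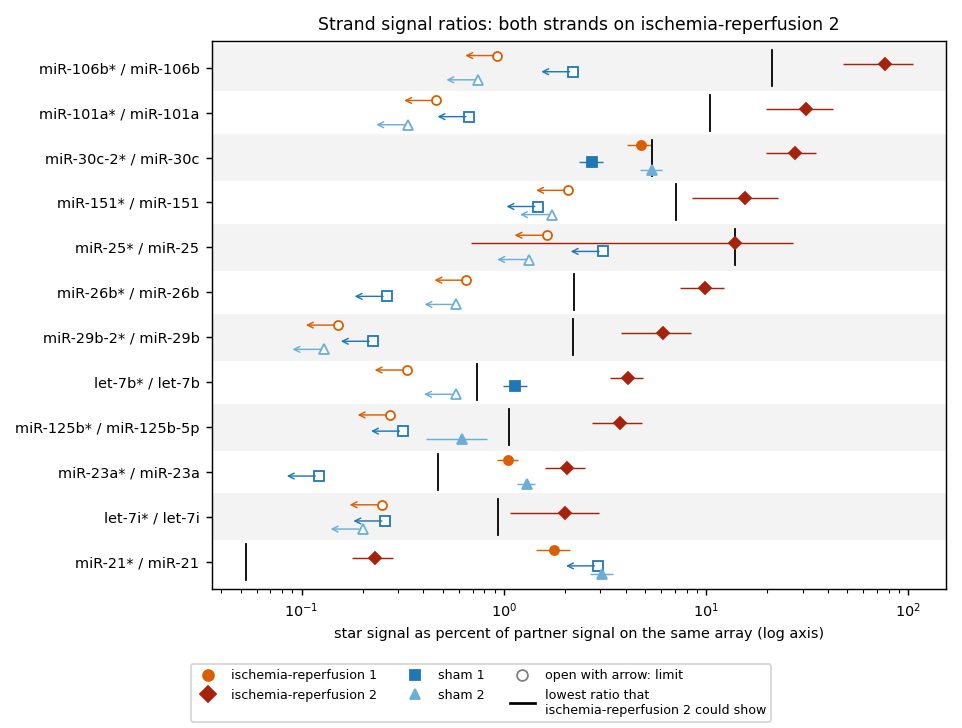
Star signal as percent of partner signal (log axis) for the 12 pairs with both strands detected in ischemia-reperfusion muscle 2 (diamonds), with propagated scanner errors. Open symbols with arrows are upper limits and the black strokes mark the lowest ratio that muscle 2 could show. Muscle 2 is highest in 11 rows, and in 8 of them the stroke itself lies right of all other points; miR-21*, in the bottom row, is lowest there at 0.230%.

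The remaining star strands were weaker or more scattered. let-7d* gave 7.88 ± 1.83 and 4.38 ± 1.81 units after ischemia-reperfusion, the second undetected, against 72.9 ± 5.84 and 8.05 ± 1.76 units in sham muscle, so that sham muscle 1 alone was high. Its log2 difference was 0.67 ± 1.32 (limma adjusted p = 0.841), and −0.62 without ischemia-reperfusion muscle 2. The ratio to let-7d was 1.17 ± 0.28% in ischemia-reperfusion muscle 1, against 2.03 ± 0.22% and 1.10 ± 0.25% in the sham muscles. Called in ischemia-reperfusion muscle 1 and sham muscle 2 only were miR-28* (6.11 and 11.6 units), miR-193* (5.45 and 9.05 units), miR-330* (8.60 and 12.0 units) and miR-30c-1*. For miR-330* the partner was detected nowhere, and the same held for miR-296*. With the partner at the lowest detected signal, miR-330* was at least 447% in ischemia-reperfusion muscle 1 and 655% in sham muscle 2. In the same way miR-296* was at least 356% and 720% in sham muscles 1 and 2. These limits are as approximate as the upper ones. miR-7a* was called in sham muscle 1 alone, at 22.3 ± 4.75 units, and miR-99b* in sham muscle 2 alone, at 9.19 ± 1.71 units. miR-125b* was called in ischemia-reperfusion muscle 2 (7.32 ± 1.96 units) and sham muscle 2 (5.25 ± 1.69 units), at 3.77 ± 1.1% and 0.622 ± 0.21% of miR-125b-5p.

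The other 25 star miRNAs were detected on no array, with signals of −17.6 to 15.6 units and a median of −1.21 units. The partner was detected on no array for 8 of them and on 1 to 3 arrays for 9. It was detected on all 4 arrays for the other 8, which are let-7e*, miR-20a*, miR-24-1*, miR-27a*, miR-29b-1*, miR-181a*, miR-196a* and miR-338*. miR-1*, the star strand of the main muscle miRNA miR-1, gave 0.490 and 3.64 units after ischemia-reperfusion, against 15.6 and 2.41 units in sham muscle, none of them called. miR-1 gave 6891 and 1.02 units after ischemia-reperfusion, against 90039 and 8359 units in sham muscle. Star strands of nerve miRNAs, miR-9* and miR-124*, were undetected together with their partners. A missing call does not show that a strand is absent.

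Pairs that the array names by arm rather than by asterisk behaved in a similar way. Of 29 such pairs, 3 had both arms detected in ischemia-reperfusion muscle 1 and both sham muscles. Ischemia-reperfusion muscle 1 and sham muscle 2 differed by a median of 1.19-fold in them, and the sham muscles by a median of 2.97-fold. With 3 pairs this is a description.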

How the data were processed

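Total RNA of 4 gracilis muscles was labelled with Cy3, 1 colour per array. Per the submitters' processing notes, the software was Agilent Feature Extraction 9.5.3. Per the file headers, the deposited values are one total signal intensity per miRNA, with its scanner error and a detection flag. Slide and scan date were likewise not given in the sources used here. The deposited value table held the same intensities (0 of 1400 values differed, tolerance 0; column medians 6.62, 2.85, 10.5 and 8.79 units for ischemia-reperfusion muscles 1 and 2 and sham muscles 1 and 2), so it is linear and not centred. Groups were taken from the titles. Sham samples are labelled biological and ischemia-reperfusion samples experimental replicates, while the series text counts all as biological. Precision is limited by having 4 arrays.

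From the files, 22 control features were left out, and 1 name had its version suffix removed. Signals were scaled by the 75th percentile, per array, of the 78 miRNAs seen on all 4 arrays. Anything under the lowest scaled detected signal (0.00157) was raised to that floor before taking log2. The 159 miRNAs that both arrays of either group had detected were tested with limma 3.58.1 (lmFit, eBayes; R 4.3.3), with Benjamini-Hochberg adjustment over all 159. Strand ratios used unscaled signals and were computed in Python 3.11.15, with exact permutation tests from SciPy 1.17.1. The limma fit and the ratio difference were tried on simulated data with less spread than these arrays. That trial does not show what they would find at the spread measured here (median within-group SD of log2 1.05). Every member detected at least once is named, tested members with all values, and pairs with both strands on at least 2 arrays with their ratios. Star names were matched to RefSeq arm names by hand. The members and lists were chosen with earlier results of these data known. Alternatives were other scalings, filters, floors and detection rules, no moderation, a replicate block, leaving out each array and, chosen after seeing the data, a moved array zero and wider limits.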

Additional observations from a re-analysis of the deposited data

How the results depend on the processing

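No star miRNA was called under any alternative that was run. Over all tested miRNAs the calls were 0 higher and 0 lower except without scaling (2 lower) and on leaving out arrays (0 to 2 higher and 0 to 9 lower, the highest without ischemia-reperfusion muscle 1, where 6 star miRNAs had an unadjusted p under 0.05). The median log2 difference of the star miRNAs was −0.63 and that of all tested miRNAs 0.45, and without scaling they were −2.04 and −2.18. The star median turned to 0.67 with each array's own floor, 0.60 with no filter (56 members) and 0.87 over the 2 members detected on all 4 arrays. Of 227 values of single star miRNAs under the alternatives, 208 kept their direction and 19 turned it. The 208 include values that could not turn. Changing only the filter, the moderation or the block, or using the identical value table, leaves the difference as it is. For let-7d* the difference of 0.67 turned to −0.0954 with the percentile of all miRNAs, −0.60 with quantile normalization and −2.04 without scaling, and ran from −0.62 to 1.97 on leaving out arrays. miR-140* turned to −7.14e-05 with quantile normalization and −1.89 without scaling. miR-296* turned to −0.0284 and −1.61 under the same 2 settings, and ran from −0.44 to 2.66 on leaving out arrays. Without scaling miR-29a* was at −0.77 and miR-30c-2* at −1.80. The difference of miR-30c-2* ran from −0.0528 to 1.88 on leaving out arrays. With each array's own floor miR-136* was at 0.53, miR-24-2* at 0.25, miR-322* at 0.99 and miR-99a* at 0.0935, and on leaving out arrays miR-136* ran from −3.09 to 0.32 and miR-24-2* from −3.40 to 0.0638. The cause was not tested.

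At a signal above 1 scanner error, 26 members counted as detected in ischemia-reperfusion muscle 2 and 23 in sham muscle 1. At 3 errors the counts were 16 and 11 in ischemia-reperfusion muscles 1 and 2, against 15 and 20 in the sham muscles. The 11 pairs with the highest strand ratio in ischemia-reperfusion muscle 2 became 7 with wider limits and 2 errors taken off, a count largely set by choosing pairs detected there. The ratio difference of miR-30c-2* (1.58) ran from 0.31 to 2.84 on leaving out arrays, and over 22 pairs with limits the median was 1.35. For 10 of the 22 the ratio of ischemia-reperfusion muscle 2 is an upper limit used as a value, which can raise that median. Upper limits in ischemia-reperfusion muscle 1 act the same way and those in the sham muscles the other way. The net effect was not computed. With the replicate number as a block, 0 miRNAs were called (13 at an unadjusted p under 0.05), and the ratio difference of miR-30c-2* stayed at 1.58 with an SE of 0.776. The deviations of same-numbered arrays had a correlation of 0.0973 over 159 miRNAs, and the labels give no pairing. Members of under about 10 units lie near the detection limit on these arrays.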
